A study of Mus musculus with 18 samples.

Results

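The stretch of mouse chromosome 6 around Nanog holds 6 genes described here: Nanog, Gdf3, Dppa3, Slc2a3, Apobec1 and Foxj2. CTCF peaks were taken where any summit lay inside 1 of these genes or within 10 kb of it, by gene positions of the mm10 build. The rule found 34 peaks in the wild-type (WT) list, 28 in the TKO list and 28 in the SKO list, 90 of 192685 peaks in all 3 lists. Merged over the lists, they formed 37 of 78072 regions. The lists come from CTCF chromatin immunoprecipitation and sequencing (ChIP-seq) in mouse embryonic stem cells, with 3 ChIP and 3 input samples per genotype, 18 in all. The TKO line lacks Tet1, Tet2 and Tet3, and the SKO line lacks these and Dnmt1, Dnmt3a and Dnmt3b. The replicates of a genotype were pooled before the authors called peaks, so each genotype is 1 list with no spread between replicates, and no test between genotypes was possible. Each genotype is its own line, so the missing enzymes and other differences between lines cannot be told apart. Cells of all genotypes grew on irradiated mouse embryonic fibroblasts, and the part of feeder chromatin in these peaks was not tested.

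CTCF is a zinc-finger protein that stops cohesin as it extrudes DNA, and so sets the borders of chromatin loops. Methylation of a CpG inside its motif can hinder binding. DNMT enzymes place this mark and TET enzymes oxidise it, which opens a route to its removal. Nanog encodes a homeodomain transcription factor of the pluripotency network. Dppa3, also called Stella, acts on DNA methylation in the germ line and the early embryo. Gdf3 encodes a ligand of the TGF-beta family, Slc2a3 the glucose transporter GLUT3, Apobec1 a cytidine deaminase known for editing RNA, and Foxj2 a forkhead transcription factor. Nanog and Dppa3 have processed pseudogenes elsewhere in the genome, and how reads that match several places were treated is not given in the sources used here.

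The question for each site is whether a peak seen in WT cells is also listed without the TET enzymes and without both enzyme families. Each deposited peak carries a −log10 q and a fold enrichment, in which the authors' caller divides the ChIP pileup by the local background. From the fold and the −log10 p, the ChIP pileup itself, in fragments over the summit, was solved for every member peak. Dividing it by the genome-wide background of its list (1.76 fragments in WT, 1.82 in TKO and 1.37 in SKO) gave the scaled pileup. Ratios between lists below are ratios of scaled pileups unless the fold is named, with 95% intervals that cover counting error only. The libraries were amplified by PCR, and molecular identifiers are not mentioned in the labels. A peak is called missing where the other list has no interval that overlaps it by at least 1 bp. The word describes membership of a list, which depends on the caller's threshold.

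Of the 37 regions, 24 were in all 3 lists, or 64.9% (95% Wilson interval 48.8% to 78.2%), against 66.3% of all regions. Another 6 were in the WT list alone, or 16.2% against 12.7% of all regions. There were 2 in WT and TKO (5.41% against 7.18%), 2 in WT and SKO (5.41% against 4.51%), 2 in TKO alone (5.41% against 4.30%) and 1 in SKO alone (2.70% against 3.34%). TKO and SKO without WT had 0 of the 37, a class that holds 1.64% of all regions. The members' shares thus lay near those of the whole lists. The 24 shared regions had a median WT fold of 12.3, and the 6 WT-only regions had one of 4.88. The highest WT fold among the WT-only regions was 7.40, and 22 of the 24 shared regions lay above it.

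**Figure D1:**
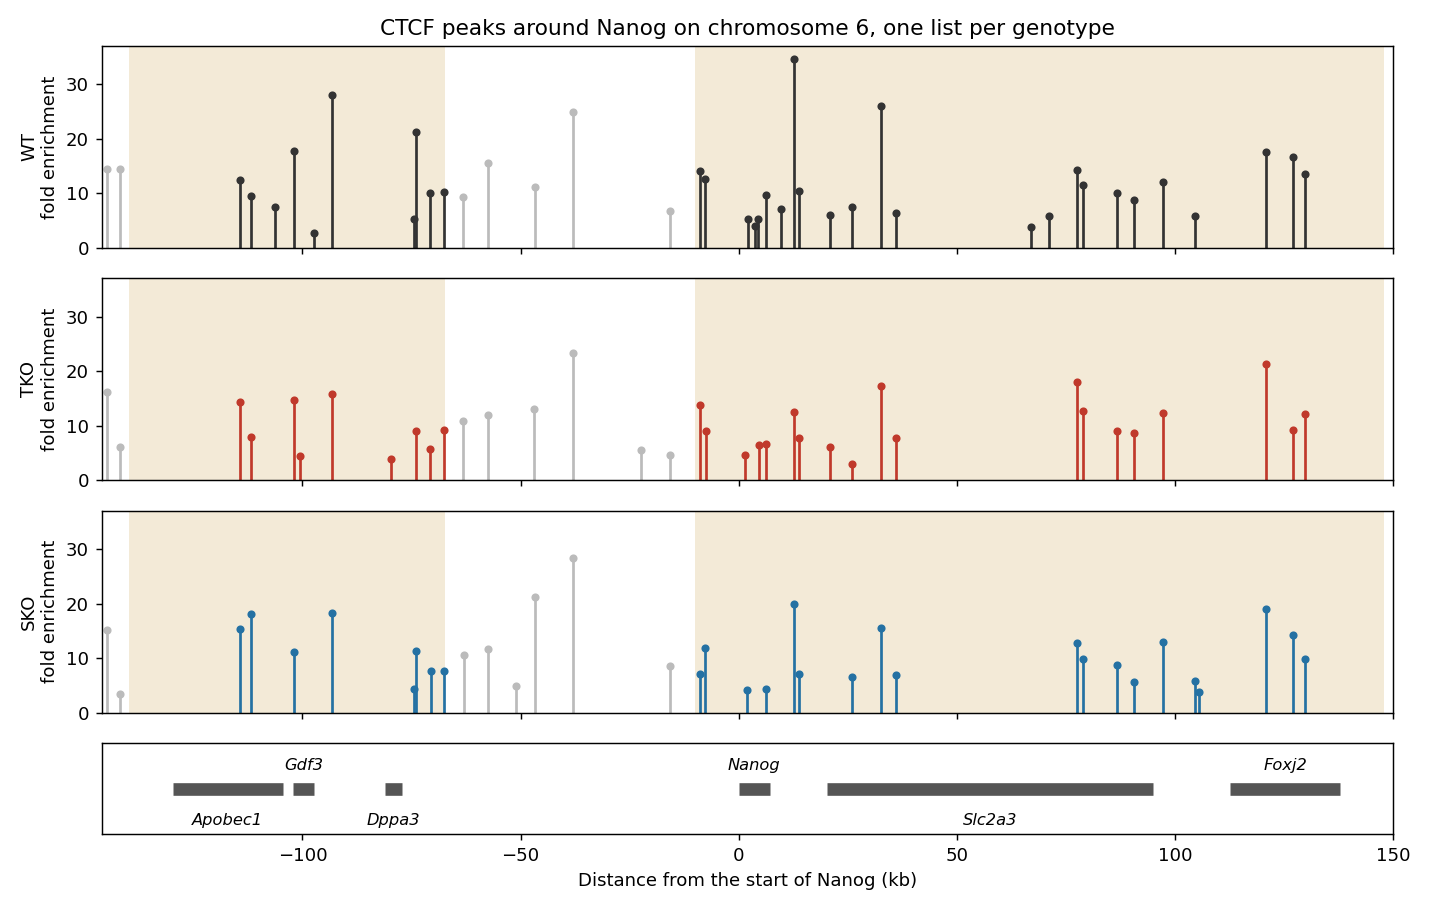
Fold enrichment (vertical axis, ChIP pileup over local background as the authors' caller gave it) of every peak in the WT, TKO and SKO lists against distance in kb from the start of Nanog, with gene bodies drawn in the lowest panel. Shaded spans are the genes with 10 kb either side, coloured stems are the member peaks and grey stems are peaks outside the rule. The highest stem in WT, with a fold of 34.6, stands 12.7 kb past the start of Nanog and is shorter in TKO and SKO.

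Promoter letters are given here beside the peaks, and no list had a CTCF peak over the start of Nanog. RefSeq (GRCm38.p6) gave a promoter for 3 of the 6 genes, and the 250 bases before the start are printed from 5′ to 3′ on the gene's strand. Capitals mark the CTCF core letters AGGGGGC or AGGTGGC on either strand and, at Nanog, TTTGCAT followed directly by TACAATG, the known composite element for OCT4 and SOX2. Necap1, a neighbouring gene outside the rule, is added because its promoter is under a peak in every list.
Nanog (chr6:122707239-122707488, plus strand): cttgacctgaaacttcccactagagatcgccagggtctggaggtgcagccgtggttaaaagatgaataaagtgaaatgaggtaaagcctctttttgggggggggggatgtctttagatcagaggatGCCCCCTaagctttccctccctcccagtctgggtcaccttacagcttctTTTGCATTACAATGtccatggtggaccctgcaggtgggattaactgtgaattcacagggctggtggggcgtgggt
Foxj2 (chr6:122819934-122820183, plus strand): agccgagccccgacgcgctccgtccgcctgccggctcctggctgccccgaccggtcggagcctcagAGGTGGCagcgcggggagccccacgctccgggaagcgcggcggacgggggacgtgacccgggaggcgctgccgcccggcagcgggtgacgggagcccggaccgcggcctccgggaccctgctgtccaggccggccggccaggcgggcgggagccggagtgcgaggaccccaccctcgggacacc
Apobec1 (chr6:122602445-122602694, minus strand): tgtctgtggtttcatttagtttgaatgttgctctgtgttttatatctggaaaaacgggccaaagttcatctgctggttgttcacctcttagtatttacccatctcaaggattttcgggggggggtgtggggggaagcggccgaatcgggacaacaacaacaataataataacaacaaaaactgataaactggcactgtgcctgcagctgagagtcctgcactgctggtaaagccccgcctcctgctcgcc
Necap1 (chr6:122874307-122874556, plus strand): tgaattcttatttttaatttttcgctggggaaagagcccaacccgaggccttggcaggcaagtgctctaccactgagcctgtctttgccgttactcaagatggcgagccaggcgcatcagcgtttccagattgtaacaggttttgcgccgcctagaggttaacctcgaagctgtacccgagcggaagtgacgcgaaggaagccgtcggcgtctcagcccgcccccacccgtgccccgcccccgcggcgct

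The Nanog promoter held the core AGGGGGC once, on the strand opposite to the printed one and 124 bases before the start. Its OCT4 and SOX2 element began 75 bases before the start. These joined letters occurred in 2 of 32851 promoter windows, and both windows belong to Nanog. The window held 3 CpGs, against a median of 6 over all windows. No peak covered it in any list, and the nearest summit lay 1.54 kb away in WT, 1.55 kb in TKO and 1.49 kb in SKO. At Foxj2 the core AGGTGGC stood 184 bases before the start, in a window with 36 CpGs, more than 97.4% of windows hold. It was also free of peaks, with the nearest summit 8.10 kb away in WT. The Apobec1 window held neither core and 7 CpGs, and its nearest WT summit was 1.18 kb away. The Necap1 window had 22 CpGs and neither AGGGGGC nor AGGTGGC. Other forms of the CTCF core were not searched, in this window or in those of the members. A summit lay 0.131 kb from the start of Necap1 in WT, 0.145 kb in TKO and 0.155 kb in SKO. Over all windows, AGGGGGC was found in 9.43% and AGGTGGC in 5.08%. A WT peak covered 21.1% of the windows with AGGGGGC and 7.71% of those without it. These matches describe letters and not binding sites.

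Nanog (chr6:122707489-122714633, 7.145 kb) had 9 WT peaks, 7 TKO peaks and 7 SKO peaks, of which 4, 3 and 3 had a summit inside the gene. Its window held 33.2 WT peaks per 100 kb, against a median of 4.33 over 21631 protein-coding genes, and 7 genes had a higher density. Among 3463 genes within 1.5 times its length the median was 2 WT peaks, and 1 other gene had 9 or more. The remaining windows held 20.3 WT peaks per 100 kb at Gdf3, 16.8 at Dppa3, 14.8 at Slc2a3, 11.1 at Apobec1 and 8.85 at Foxj2. Windows of neighbouring genes overlap, so some peaks count for a pair of genes.

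The peaks of Nanog differed widely in strength. The strongest lay 5.53 kb past the gene end (chr6:122719872-122720742) and was also the strongest near Slc2a3. Its fold stood at 34.6 in WT, 12.4 in TKO and 20.0 in SKO. Its pileup was 171 fragments in WT (95% Poisson interval 146 to 199), 129 in TKO (108 to 153) and 132 in SKO (110 to 157). On the scaled pileup that was 97.4, 70.9 and 96.5, so SKO stood level with WT and TKO was lower. The TKO to WT ratio was 0.728 (0.575 to 0.921), and 23.4% of all shared peaks had a lower one. The fold ratio was far lower, 0.359, a value that only 0.512% of shared peaks fell below. Between these figures stands the local background, which was 3.96 fragments in WT and 9.45 in TKO. After scaling, the background ratio was 2.3, higher than at 99.1% of shared peaks. In SKO the local background was 5.66 fragments, the scaled pileup ratio to WT was 0.991 (0.783 to 1.25) and the fold ratio was 0.577. Of both terms of the fold, the background thus differed by the larger factor, and why it was higher was not tested. The solved background depends on the caller's settings, such as the scaling of the input and the treatment of duplicate reads, which are not given in the sources.

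Upstream of Nanog stood 2 more peaks that were listed in every genotype. The farther one, 8.93 kb before the start (chr6:122698361-122698805), had a scaled pileup of 50.1 in WT, 40.7 in TKO and 25.6 in SKO. SKO was the low list here. The SKO to WT ratio was 0.510 (0.335 to 0.763), and the SKO to TKO ratio was 0.629 (0.408 to 0.952). Both intervals lay wholly below the median ratios of all shared peaks, which were 0.942 and 1.09. The same held for 5.55% of all shared peaks in SKO to WT and 4.22% in SKO to TKO. Both ratios rest on the same SKO pileup of 35 fragments. The TKO to WT ratio, 0.812, did not stand apart in this way from its median of 0.864. The nearer peak, 7.63 kb before the start, had scaled pileups of 33.0, 32.4 and 34.4. Its ratios to WT were 0.982 (0.672 to 1.44) in TKO and 1.04 (0.692 to 1.55) in SKO.

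Inside Nanog the WT peaks had folds from 3.98 to 9.69. The WT list has a median fold of 10.0, so the highest of them was close to it. The interval at 2.02 kb (chr6:122708869-122709625) had 2 summits and was listed in all genotypes, with scaled pileups of 12.5, 13.2 and 13.2 at the strongest summit of each list. That summit was not the same in TKO as in WT and SKO. The summits near 2.0 kb had 12.5, 9.90 and 13.2, and those near 1.5 kb had 12.0, 13.2 and 9.50. In SKO the interval was split into 2, with folds of 2.80 and 4.26. The peak at 3.81 kb (chr6:122711135-122711420, fold 3.98, pileup 24) was in the WT list alone. The next one, at 4.51 kb (chr6:122711865-122712175), had folds of 5.24 in WT and 6.42 in TKO and was missing from SKO. Near the gene end, at 6.22 kb, a peak (chr6:122713400-122713964) had scaled pileups of 20.5, 15.9 and 12.4. Its SKO to WT ratio was 0.606, with a counting interval of 0.319 to 1.11 that holds the median of all shared peaks. Past the gene end by 2.63 kb, a peak (chr6:122717152-122717494, fold 7.03, pileup 23) was again WT-only. The peak at 13.9 kb had folds of 10.4, 7.73 and 7.17.

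**Figure D2:**
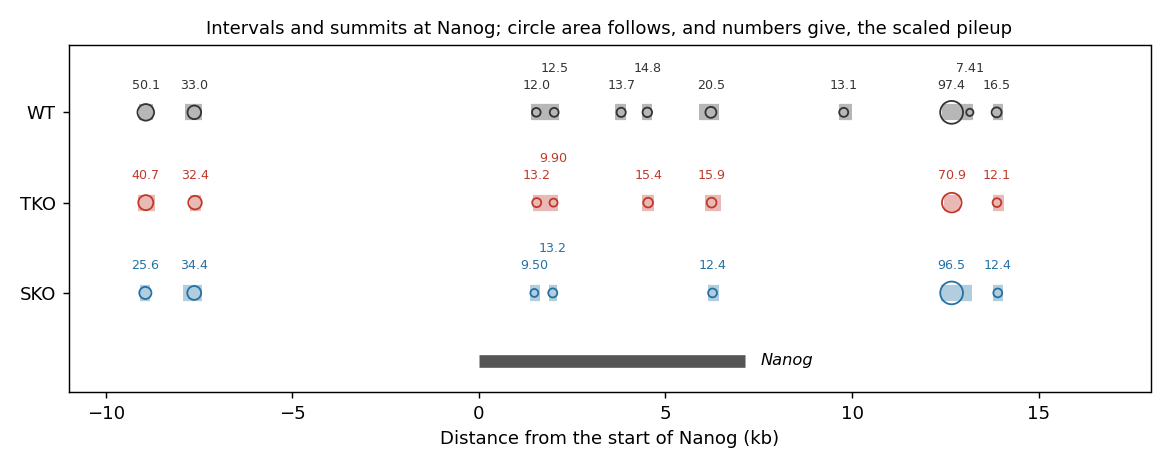
Intervals (bars) and summits (circles) of the 3 lists against distance in kb from the start of Nanog. Circle area grows with the scaled pileup, which is printed above each summit. The 3 peaks missing from SKO lie at 3.81, 4.51 and 9.78 kb, with WT scaled pileups of 13.7, 14.8 and 13.1, and no list has a summit between the upstream pair and 1.49 kb past the start.

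Over the whole Nanog window, TKO lacked 2 of the 9 WT peaks and SKO lacked 3, and neither knockout had an extra peak. A gene with 9 WT peaks often had such numbers: of 263 such genes, 30.0% had 3 or more missing from SKO and 46.4% had 2 or more missing from TKO. By numbers of peaks in the 3 lists, 15 protein-coding genes had exactly the 9, 7 and 7 of Nanog. The SKO number of Nanog counts the split interval inside the gene as 2 peaks, where WT and TKO have 1. The 3 genes nearest to Nanog in length were Stpg1 on chromosome 4, Cngb1 on chromosome 8 and Rnf212b on chromosome 14. Each of these had 2 WT peaks missing from TKO and 2 from SKO. They are longer genes, of 43.1, 67.5 and 70.8 kb, so their peaks lie farther apart.

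Dppa3 (chr6:122626424-122630271) had 4 peaks in each list, but not at the same places. Its strongest, 3.32 kb from the gene (chr6:122633334-122633881), had scaled pileups of 72.4 in WT, 56.1 in TKO and 68.0 in SKO. As at the strong site past Nanog, the fold differed more, with 21.3 in WT and 9.04 in TKO. Its local background was 5.02 fragments in WT and 10.4 in TKO, and 1.71% of shared peaks had a lower fold ratio than its 0.425. A weak peak 2.69 kb from the gene (chr6:122632797-122633100) was listed in WT with a fold of 5.27 and in SKO with 4.37, but not in TKO. The TKO list instead had a peak inside Dppa3 (chr6:122627729-122627962, fold 3.95, pileup 12), the only one within that gene in any list.

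The peak 6.56 kb past Dppa3 (chr6:122636493-122637043) was the only shared member peak with a ratio interval below the median in both knockouts. Its scaled pileup came to 29.6 in WT, 15.4 in TKO and 14.6 in SKO. The ratios to WT were 0.520 (0.316 to 0.838) in TKO and 0.494 (0.279 to 0.841) in SKO. Of all shared peaks, 4.60% had an interval wholly below the median in TKO and 5.55% in SKO. The share below in both is not given here. The fourth peak, 9.61 kb from the gene, had 22.2, 22.0 and 16.1. Both ratios share the same WT value.

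Gdf3 (chr6:122605403-122610087) had 5 WT peaks, 4 TKO peaks and 3 SKO peaks. Its strongest stood 4.15 kb away (chr6:122614006-122614502), with scaled pileups of 70.1, 54.4 and 57.0 and folds of 28.0, 15.7 and 18.3. A second strong peak at one edge of the gene (chr6:122605145-122605899) was also the strongest of Apobec1. Its scaled pileup came to 55.3 in WT, 48.4 in TKO and 69.5 in SKO. The SKO to WT ratio was 1.26, with a counting interval of 0.937 to 1.69 that holds the median of 0.942. The fold of this peak was lowest in SKO, with 17.8, 14.7 and 11.1. At the opposite edge of Gdf3 a WT-only peak (chr6:122609754-122610057) had a fold of 2.68 and a pileup of 11, the weakest WT peak of the 34. TKO had an extra peak inside Gdf3 (chr6:122606714-122607022, fold 4.52, pileup 22).

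Apobec1 (chr6:122577792-122603024) shares most of these sites with Gdf3 and likewise had 5, 4 and 3 peaks in the WT, TKO and SKO lists. Of its peaks inside the gene, the one at chr6:122601147-122601442 was in WT alone, with a fold of 7.40 and a pileup of 24. The other 2 were listed in all genotypes. The first of them (chr6:122592886-122593345) had scaled pileups of 42.2, 29.7 and 32.9. The second (chr6:122595559-122596058) had 34.8, 20.3 and 30.7, while its fold came to 9.46 in WT, 7.95 in TKO and 18.2 in SKO. That high SKO fold stood over the lowest local background of the list, 1.37 fragments, and the pileups were 61, 37 and 42.

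Slc2a3 (chr6:122727809-122802363, 74.555 kb) had the most peaks, with 14 in the WT list and 11 in each knockout list. Besides the site it shares with Nanog, its strongest peak was inside the gene (chr6:122739897-122740404), with scaled pileups of 84.9 in WT, 74.8 in TKO and 93.6 in SKO. Another pair inside the gene, 77.6 and 79.0 kb past the Nanog start, had scaled pileups of 63.2, 52.8 and 61.4, and of 49.0, 50.6 and 54.1. These strong sites were listed in all genotypes. The WT-only peaks of the gene were at chr6:122774252-122774563 (fold 3.80, pileup 12) and chr6:122778246-122778673 (fold 5.78, pileup 15). They are the only peaks between 36.0 and 77.6 kb past the Nanog start in any list.

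At one boundary of Slc2a3 a peak (chr6:122728186-122728494) was listed in WT with a fold of 5.99 and in TKO with 6.20, and was missing from SKO. A peak 25.9 kb past the Nanog start had scaled pileups of 16.0 in WT, 7.15 in TKO and 12.4 in SKO. Its TKO to WT ratio of 0.448 was the lowest of the members, but with pileups of 28 and 13 its interval, 0.213 to 0.894, reached past the median of 0.864. The remaining Slc2a3 peaks in all lists had WT scaled pileups from 15.4 to 59.3. Their TKO to WT ratios ran from 0.715 to 1.11, with none wholly to one side of the median.

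Foxj2 (chr6:122820184-122845366) kept 3 of its 4 WT peaks in every list, all inside the gene. Its strongest (chr6:122828023-122828561) had scaled pileups of 86.6, 73.7 and 92.1 and nearly level folds of 17.7, 21.3 and 19.1. The others had 68.9, 48.9 and 68.7, and 29.6, 20.9 and 17.5. The fourth peak, 8.20 kb away and also within reach of Slc2a3 (chr6:122811728-122812154), was listed in WT with a fold of 5.89 and in SKO with 5.81, but not in TKO. Beside it, the SKO list had an extra peak (chr6:122812851-122813061, fold 3.82, pileup 13).

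**Figure D3:**
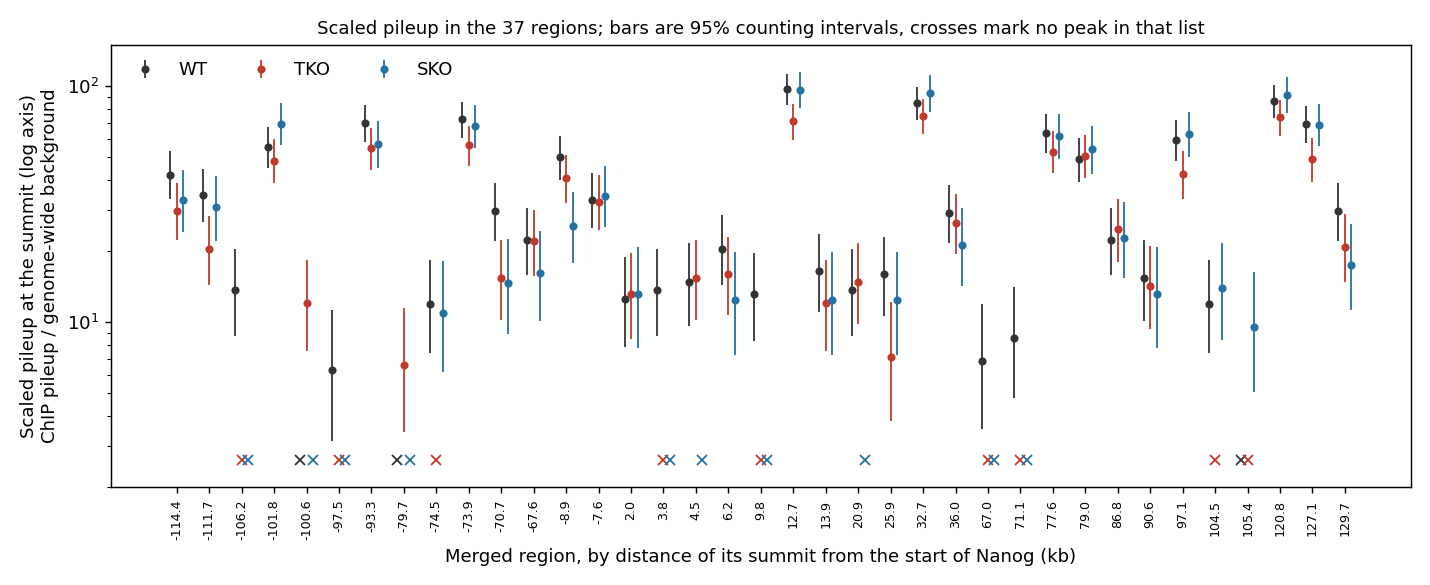
Scaled pileup (ChIP pileup at the summit divided by the genome-wide background, log axis) of the 37 regions in order of distance in kb from the Nanog start. Points are the 3 lists, bars are 95% counting intervals and crosses mark a list without a peak. Every cross stands in a region whose listed values are at most 15.4, and every region above 15.4 in WT has a point in all lists.

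Counted over the genes, 8 of 34 WT peaks were missing from TKO, or 23.5% (95% Wilson interval 12.4% to 40.0%). Over the whole WT list the share was 19.0%. From SKO also 8 of 34 were missing, against 21.9% of the whole list. Of TKO peaks, 2 of 28 had no WT peak, against 7.49% of the TKO list, and of SKO peaks 1 of 28, against 6.59% of the SKO list. Between the knockouts, 4 of 28 TKO peaks had no SKO peak (background 14.5%), and 3 of 28 SKO peaks had no TKO peak (background 10.4%). Each whole-list share lay inside the Wilson interval of the members' share. Of the 8 WT peaks missing from each knockout, 6 were missing from both, or 75% of each set. Over the whole WT list, 9934 peaks were missing from both, which is 73.6% of those missing from TKO and 63.8% of those missing from SKO.

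All missing WT peaks came from the weaker part of the WT list. Their median −log10 q was 8.45 for those missing from TKO and 9.30 for those missing from SKO, and it was 44.5 for the shared peaks in each comparison. With the whole WT list cut by −log10 q into 10 bins of equal size, 13 member peaks lay in the 4 weakest bins, and 8 of these were missing from TKO and 8 from SKO. In those bins of the whole list 45.3% were missing from TKO and 51.7% from SKO. The other 21 member peaks lay in the stronger bins, where 0 were missing from either knockout. There the whole list had 1.46% missing from TKO and 2.02% from SKO. At the rates of the bins, 5.65 of the 34 would be missing from TKO and 6.65 from SKO. The 5 member peaks in the strongest bin were those past Nanog, near Gdf3, near Dppa3, in Slc2a3 and in Foxj2.

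**Figure D4:**
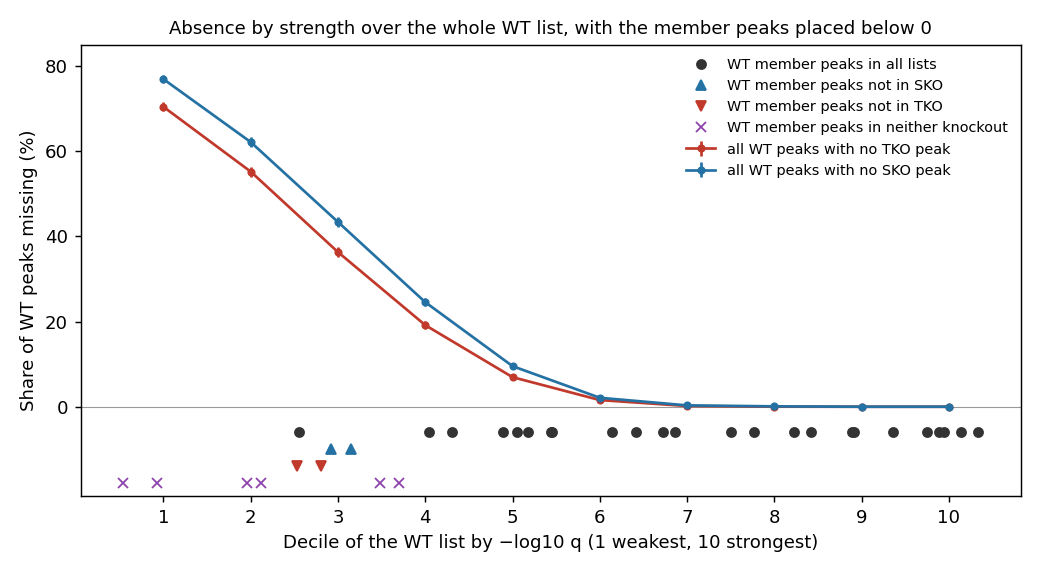
Share of all WT peaks missing from TKO (red) and from SKO (blue) in percent, by decile of the WT −log10 q, with 95% Wilson intervals mostly smaller than the points. The 34 member peaks of WT are set below 0 at their own rank and marked by the lists that lack them. All triangles and purple crosses lie at or below the fourth decile, where 3 member peaks are nonetheless listed in all genotypes.

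For each missing peak, the WT pileup was scaled to the other list and set beside the lowest pileup that could reach the weakest −log10 p of that list over the same scaled background. The WT-only peak inside Apobec1 would have had 24.9 fragments in TKO, where 9 were needed, and 18.7 in SKO, where 8 were needed. Past the Nanog end, the WT-only peak would have had 23.8 against 9 in TKO and 17.9 against 8 in SKO. The WT-only peak inside Nanog would have had 24.9 against 15, and 18.7 against 12. The margin was smallest at the weakest Gdf3 peak, with 11.4 against 11 in TKO and 8.57 against 10 in SKO. This last case, in SKO, was the only one in which the value for equal binding was below the one needed. These peaks were picked for being listed in WT and missing from the other list, so their WT pileups may be high by selection. The scaling also leaves out the median ratios of all shared peaks to WT, 0.864 in TKO and 0.942 in SKO. The background in the list without the peak is not known at these sites. These figures thus describe the WT peaks and do not say why a peak is missing or that it should have been listed.

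Ratios at the shared member peaks lay near those of the whole lists. The median TKO to WT ratio was 0.823 over 26 member peaks (range 0.448 to 1.11) and 0.864 over all 57583 shared peaks. For SKO to WT the medians were 0.928 over 26 members (0.494 to 1.26) and 0.942 over 55504 peaks. Between the knockouts, SKO to TKO, they were 1.06 over 24 members (0.629 to 1.74) and 1.09 over 53242 peaks. On the authors' fold the medians were 0.889 for the members and 0.901 for all shared peaks in TKO to WT, and 0.824 and 0.929 in SKO to WT. In SKO to TKO the fold gave 0.925 for the members and 1.04 for all, so the members' median lay below 1 on the fold and above 1 on the scaled pileup. The counting interval lay wholly below the median ratio for 1 member in TKO to WT (background 4.60%), 2 in SKO to WT (5.55%) and 1 in SKO to TKO (4.22%). It lay wholly above the median for 0 members in each comparison, where the backgrounds were 3.90%, 5.57% and 5.20%. The sites below were the one 6.56 kb past Dppa3 and the one 8.93 kb before Nanog. Summits of shared peaks stood close together, with a median distance of 9 bp between TKO and WT and of 10 bp between SKO and WT.

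**Figure D5:**
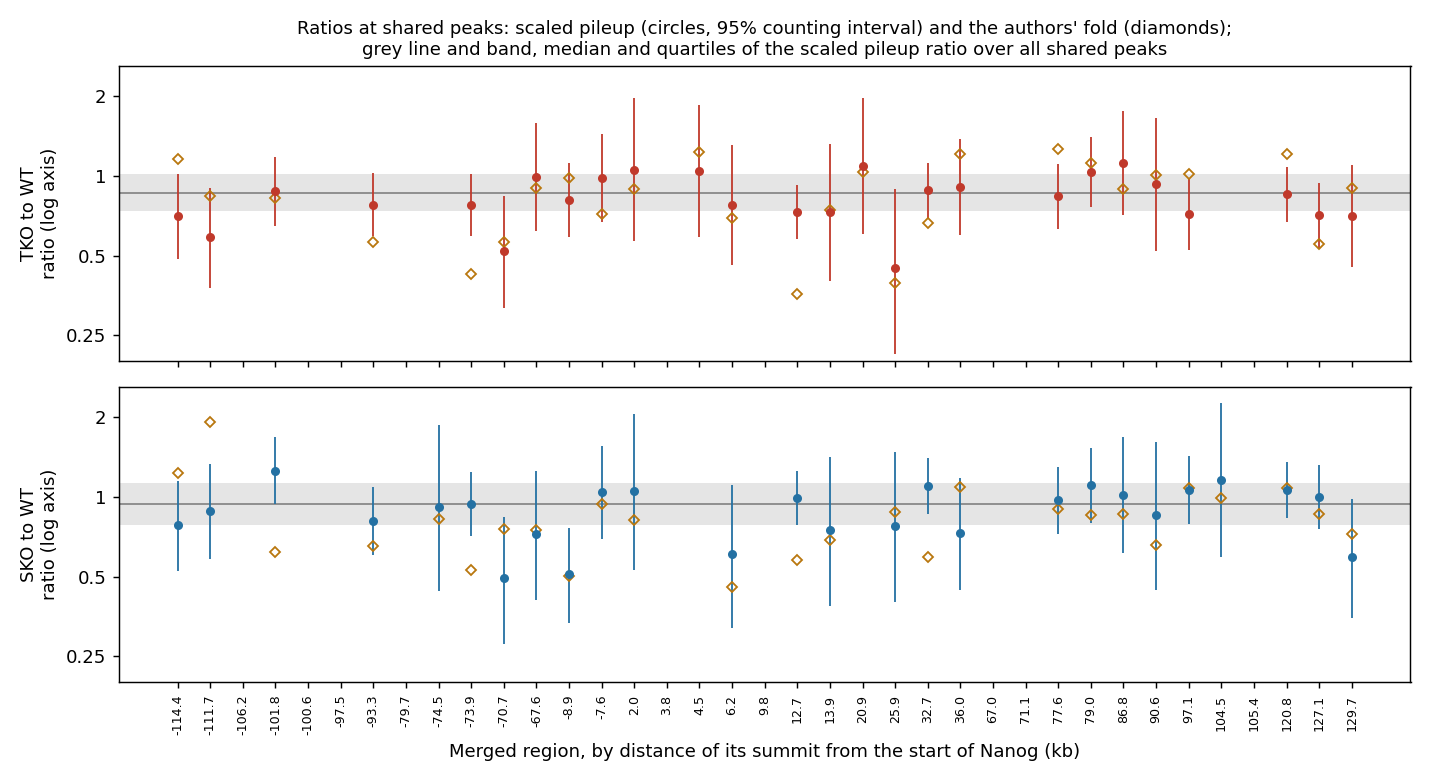
Ratio of TKO to WT (upper panel) and of SKO to WT (lower panel) at each shared member peak, on log axes, in order of distance in kb from the Nanog start. Circles are ratios of scaled pileups with 95% counting intervals, diamonds are ratios of the authors' fold, and the grey line and band are the median and quartiles of the scaled pileup ratio over all shared peaks. The diamond at 12.7 kb in TKO is at 0.359 while its circle is at 0.728, and the lowest blue circles with an interval below the band's line stand at −70.7 and −8.93 kb.

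Neighbouring genes outside the rule were counted in the same way. Of 17 genes listed, 16 were matched by symbol, but 1 of them, A2ml1, lies 5.83 Mb from the Nanog start and is no neighbour. The other 15 held 27 WT, 26 TKO and 28 SKO peaks, of which TKO lacked 2 of the WT ones (7.41%) and SKO lacked 3 (11.1%). With A2ml1 the lists held 29, 27 and 29 peaks, and 3 (10.3%) and 4 (13.8%) were lacking. Over the whole WT list 19.0% were missing from TKO and 21.9% from SKO. The counts of the neighbours are small, and the difference was not tested. C3ar1, a complement receptor gene, had 3 peaks in each list with none missing. Mfap5, a gene of the extracellular matrix, had 6, 6 and 4. The C-type lectin genes Clec4a1, Clec4a2, Clec4a3, Clec4b1 and Clec4e had 0 peaks in every list. Of the others in that family, Clec4b2 had 1, 1 and 1, Clec4d had 1, 0 and 2, and Clec4n had 0, 1 and 1. Peaks of C3ar1 are partly those of Foxj2.

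Pluripotency genes on other chromosomes gave 73 WT, 65 TKO and 58 SKO peaks over 25 genes. TKO lacked 14 of the WT ones (19.2%) and SKO lacked 19 (26.0%). Esrrb, an orphan nuclear receptor gene, had 10, 8 and 5 peaks. Pou5f1, which encodes OCT4, had 6, 5 and 5, and Sox2 had 3, 2 and 3. Dppa4 and Lin28a each had 3, 1 and 1. Other genes had more peaks in a knockout, such as Klf4 and Tfcp2l1 with 2, 3 and 3 and Sall4 with 4, 6 and 4, while Tbx3 had 5 in each list. In TKO, 9 of the 25 genes had fewer peaks than in WT, 4 had more and 12 as many, and in SKO the numbers were 11, 3 and 11. The paralogues of the members, 10 genes such as Slc2a1, Nodal and Foxj3, held 36 WT, 33 TKO and 38 SKO peaks, and TKO lacked 7 of the WT ones (19.4%) while SKO lacked 4 (11.1%). These shares describe small lists and were not tested against the whole WT list, with 19.0% missing from TKO and 21.9% from SKO.

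Just outside the rule, the WT peak nearest to any of the 6 genes lay beyond Apobec1 (chr6:122565449-122565814), with a fold of 14.5. Its ratio to WT was 0.483 (0.283 to 0.804) in TKO and 0.535 (0.301 to 0.918) in SKO. Both intervals lay wholly below the median ratios of all shared peaks, as did those of 4.60% of these peaks in TKO and 5.55% in SKO. The fold ratios there were 0.416 and 0.242. Another WT peak lay 14.1 kb from Dppa3 with a fold of 9.32. One beyond Foxj2 (chr6:122859456-122859908) had 15.1, and one 15.9 kb before the start of Nanog had 6.69. Just inside the rule, the farthest peak from any gene was the one 9.61 kb from Dppa3, with a WT fold of 10.2. Next came the one 8.93 kb before Nanog, with 14.2.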

How the data were processed

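Per the labels, 1 peak list per genotype was made from 3 pooled ChIP and 3 pooled input samples. Bowtie2 2.3.4 and MACS2 2.1.2 are listed in the submitters' processing notes, beside SAMtools 1.9, FastQC 0.11.7, deepTools 3.5.0 and bedtools 2.25.0, with the mm10 build. Settings of the aligner and caller, and the treatment of duplicate reads, are not given in the sources. The deposited columns used are the fold enrichment, a ratio of ChIP to background, the −log10 p, and the −log10 q, a score from the authors' caller too.

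Rows with equal intervals were joined and carried by their strongest summit, which gave 71075 WT, 62238 TKO and 59372 SKO peaks. ChIP pileup and local background were solved from fold and −log10 p, with the pileup whole (tolerance 1e-04) for all member peaks; the solution was checked on simulated data. The lowest background of a list served as its genome-wide background. Sequencing depth per sample was not analysed here. Ratios carry exact conditional binomial intervals, pileups exact Poisson intervals. Genes and promoters are from RefSeq GRCm38.p6, which gives no exons. Python 3.11.15, pandas 2.3.3 and scipy 1.17.1 were used.

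Every region was accounted for. Those missing from a list and the strongest of each gene were described in full, and genes like Nanog were the nearest by peak numbers, then length. The members and lists were chosen with earlier results of these data known, and peak density, the OCT4 and SOX2 letters and further regions after their values were seen. The alternatives were other windows, thresholds, overlaps and measures of height.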

Additional observations from a re-analysis of the deposited data

How the results depend on the processing

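No paired analysis was possible because replicates were pooled before the authors called peaks, and for the same reason no replicate could be left out. Shares over all peaks under the same setting are given after "against". Over gene bodies alone the member peaks numbered 22 in WT and 16 in SKO (34 and 28 with 10 kb). TKO then lacked 5 of the 22 WT peaks, or 22.7% against 19.0%, and the share with 10 kb was 23.5%. Of the 16 SKO peaks, 0 had no WT peak (against 6.59%) and 0 had no TKO peak (against 10.4%). With 50 kb either side there were 52 WT, 46 TKO and 45 SKO peaks. SKO lacked 7 of the 46 TKO peaks (15.2% against 14.5%), and of the 45 SKO peaks 2 had no WT peak (4.44% against 6.59%) and 5 no TKO peak (11.1% against 10.4%). At a −log10 q of at least 5, 1 of 26 TKO peaks (3.85% against 6.27%) and 0 of 26 SKO peaks (against 5.03%) had no WT peak. When a shared peak had to overlap a share of at least 0.5 of each interval, 3 of 28 SKO peaks had no WT peak (10.7% against 8.70%) and 5 had no TKO peak (17.9% against 12.3%). The median log2 ratio of SKO to TKO over the members was −0.11 on the authors' fold and turned to 0.090 on the scaled pileup; the cause was not tested. The count of WT peaks missing from SKO stayed within 1.5 times of 8 in every alternative, but the number of WT peaks changed with the setting. The highest share was 7 of 22 over gene bodies alone (31.8% against 21.9%). The lowest was 6 of 32 at a −log10 q of at least 5 (18.8% against 20.4%). At the missing peaks, pileups of 11 to 28 fragments leave wide counting intervals.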

Other observations

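Between the windows of Dppa3 and Nanog lay 7 further regions, chosen for description after their values were seen. The strongest stood 37.9 kb before the Nanog start (chr6:122669316-122669861), with a fold of 24.9 in WT, 23.3 in TKO and 28.5 in SKO. A weak peak was in the SKO list alone (chr6:122656396-122656615, fold 5.00), and another in the TKO list alone (chr6:122685015-122685237, fold 5.51). The remaining 4 regions of this gap were in all lists, and no WT peak there was missing from a knockout.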
